A study of Mus musculus with 11 samples.

Results

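The cytosolic ribosome is built from ribosomal RNA and a large set of proteins, whose messenger RNAs are among the most abundant in every tissue. The genes described here are those whose symbol begins with Rpl or Rps followed by a digit, together with Rplp0, Rplp2 and Rpsa, and without S6 kinases, pseudogenes and Rps19bp1. The rule reads symbols only, and it was set with earlier results of these data known. On probe sets that carry a single gene symbol, 49 such genes were measured, of 18194 genes in all, and each was represented by its brightest probe set over all arrays. They comprise 20 proteins of the large subunit, 21 of the small subunit, both measured members of the ribosomal stalk (Rplp0 and Rplp2) and 6 paralogs (Rpl22l1, Rps27l, Rpl7l1, Rpl3l, Rps4l and Rpl39l). Rplp1 was not measured on such a probe set, and 31 further symbols of the family occurred only on probe sets shared by several genes.

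Ribosomal proteins are made in near equal numbers and assembled with ribosomal RNA in the nucleolus into a small subunit, which decodes the messenger, and a large subunit, which joins amino acids. Most of their messengers begin with a C and a run of pyrimidines, the 5′ terminal oligopyrimidine (TOP) motif, through which nutrient signals that pass through the kinase complex mTORC1 set their translation and stability. The exocrine pancreas has one of the highest rates of protein synthesis of any tissue, since its acinar cells secrete digestive enzymes.

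RNA of whole pancreas from female Balb/C mice aged 30 days was hybridised to 11 Affymetrix mouse arrays. The dams ate an isocaloric low protein diet (8% protein) or a control diet (20% protein) while pregnant, and all dams ate the control diet from birth on. The offspring received streptozotocin (STZ, 35 mg per kg body weight), a toxin that enters and kills insulin-producing β cells, or citrate buffer (sham), on each of days 1 to 5 of life. There were 3 arrays of low protein STZ, 3 of low protein sham, 2 of control STZ (replicates 1 and 3) and 3 of control sham offspring. All animals carried the Balb/C background and no engineered allele. The labels name neither dam nor litter, so effects of diet and of litter cannot be told apart in the diet comparisons. The design asks whether protein restriction before birth and early STZ, alone or together, alter the pancreas at 30 days.

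The values are log2 signals as deposited, so a difference of 1 is a 2-fold difference in signal. Array medians over all probe sets lay between 7.92 and 7.97. The arrays differed more among the bright genes: the upper end (99th percentile) of signal, taken without ribosomal protein probe sets, lay between 11.63 and 12.17 in the 6 low protein arrays and between 12.18 and 12.40 in the 5 control arrays. Low protein STZ 1 had the lowest of these values. Acinar markers matched the labelled tissue: all 15 measured of 20 listed were bright, with an array mean of 14.89 to 15.38 in low protein STZ, 15.25 to 15.30 in low protein sham, 15.52 to 15.60 in control STZ and 15.65 to 15.74 in control sham pancreas. Ins2, which encodes insulin, averaged 13.13 ± 0.38 in low protein STZ, 13.88 ± 0.60 in low protein sham, 13.25 ± 0.22 in control STZ and 14.97 ± 0.23 in control sham arrays (SD, n = 3, 3, 2 and 3).

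The starts of 43 of the 49 genes were found in RefSeq (mouse build GRCm38.p6); Rpl7, Rpl8, Rps4l, Rps14, Rps20 and Rps29 were not among them. Each line below gives 30 bases around the annotated start, 15 before it and 15 from it on, 5′ to 3′ on the strand of the gene, with the longest run of pyrimidines (C or T) of the printed window in capitals. The first 6 were chosen because they carry long runs and differ in the size of the diet difference described below, from -0.80 for Rpl13a to -0.18 for Rpl14, and the last 3 because they carry none of 8 bases.
Rpl13a, chr7:45128731-45128760, minus strand: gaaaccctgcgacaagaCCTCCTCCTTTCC
Rpl35, chr2:39005117-39005146, minus strand: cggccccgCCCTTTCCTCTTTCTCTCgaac
Rpl7a, chr2:26910792-26910821, plus strand: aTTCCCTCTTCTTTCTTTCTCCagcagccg
Rpl22l1, chr3:28805493-28805522, plus strand: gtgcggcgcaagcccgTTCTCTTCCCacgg
Rplp2, chr7:141447636-141447665, plus strand: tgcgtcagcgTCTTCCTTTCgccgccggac
Rpl14, chr9:120571502-120571531, plus strand: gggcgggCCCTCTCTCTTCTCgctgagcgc
Rpl22, chr4:152324421-152324450, plus strand: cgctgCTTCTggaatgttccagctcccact
Rpl41, chr10:128549154-128549183, minus strand: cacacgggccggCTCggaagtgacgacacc
Rpl3l, chr17:24727811-24727840, plus strand: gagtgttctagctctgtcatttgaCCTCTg

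A run of at least 8 pyrimidines on the strand of the gene lay within 25 bases of the start in 23 of the 43 genes (53.5%), against 22.3% of 27025 genes in the table and 22.9% of the 12674 tested genes found in it. A run is a description of the letters and not a mapped TOP motif, because annotated starts can differ from those used in pancreas. Rpl7a carried the longest printed run, of 21 bases, and Rpl35 one of 18 bases. Rpl41 had no run above 3 bases in the window, and Rpl22 none above 5.

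On the arrays, the family divided into a bright and a dim set. Of the 49 genes, 37 had a mean over all arrays of at least 11, between 11.54 (Rps19) and 14.71 (Rps29). The other 12 lay at or below 9.90 and included Rpl39l at 7.26, Rps4l at 7.54 and Rpl3l at 7.87, paralogs known from testis (Rpl39l) and striated muscle (Rpl3l). Rps16 had a mean of 5.50, under the limit of 6.87 below which genes were not tested, while Rpl39l lay just above that limit, so 48 genes were tested. The division follows the probe sets as well as the genes: all 12 dim genes were represented by probe sets with the plain suffix _at, whereas 32 of the 37 bright ones were represented by probe sets whose suffix (_a, _s or _x) marks probes shared between transcripts. Rps6 and Rps25, both proteins of the small subunit, were among the dim genes, and signals of different probe sets give no order of abundance between genes.

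Across the 11 arrays, the median signal of the 48 genes was lower in each low protein array than in any control array. It was 12.45, 13.22 and 13.09 in low protein STZ arrays 1, 2 and 3, and 13.23, 13.06 and 13.00 in low protein sham arrays. It was 13.70 and 13.52 in control STZ arrays 1 and 3, and 13.72, 13.57 and 13.75 in control sham arrays. Low protein STZ 1 stood apart from the other low protein arrays, and it held the lowest of the 11 values for 42 of the 48 genes. Counted gene by gene, 2 to 7 of the 48 genes exceeded their own 11-array median in a low protein array, against 40 to 44 in a control array.

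**Figure D1:**
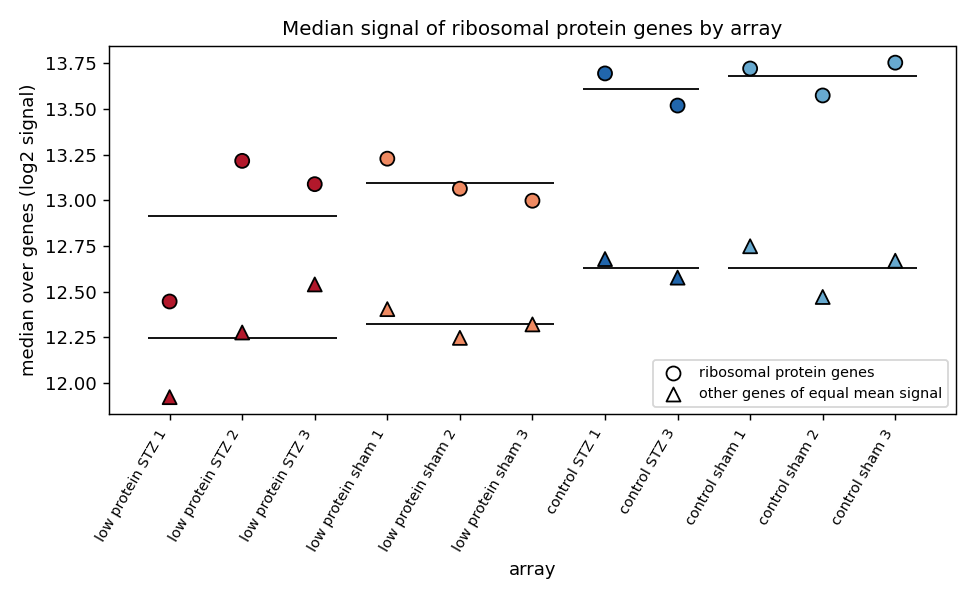
Median log2 signal per array of the 48 tested ribosomal protein genes (circles) and of 306 other genes with a mean signal of 11.81 to 13.86 (triangles), with horizontal lines at the mean of each group's array medians. Ribosomal protein medians lie between 12.45 and 13.23 in low protein arrays and between 13.52 and 13.75 in control arrays, and the other bright genes also lie lower in most low protein arrays.

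**Figure D2:**
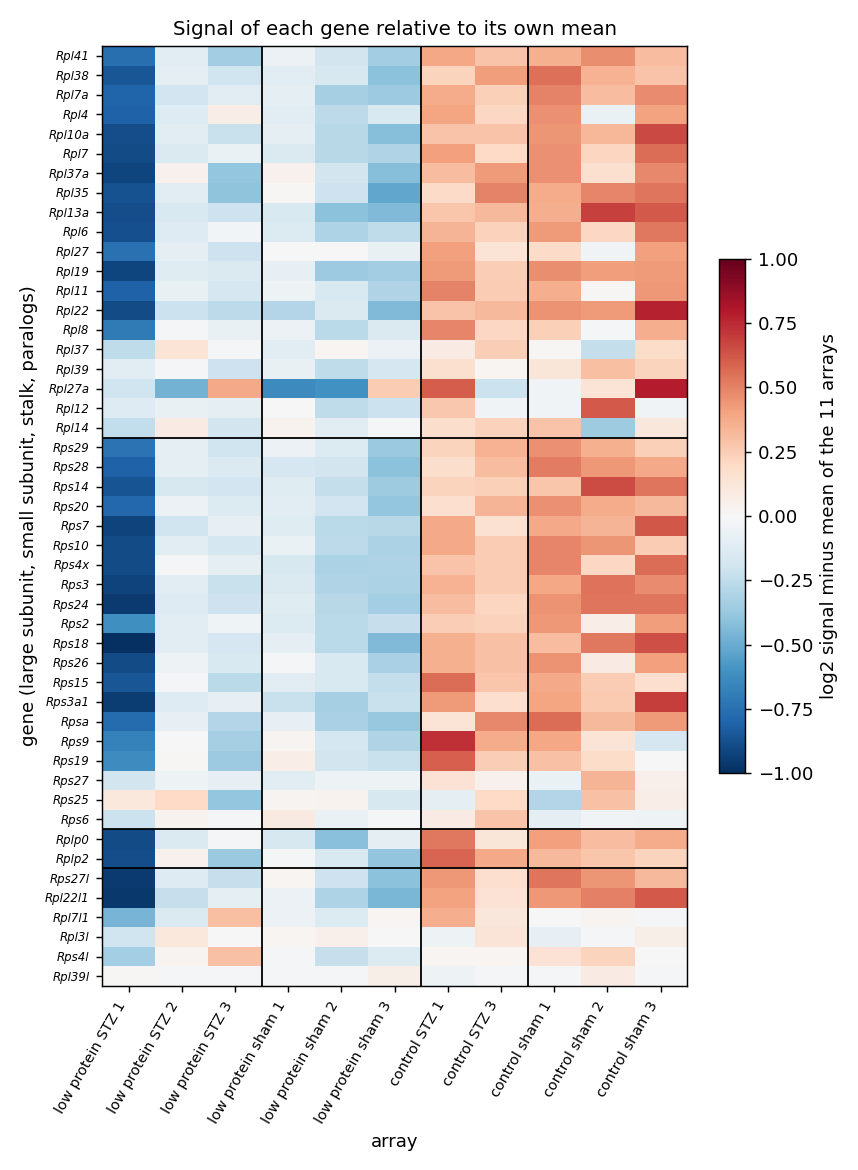
Log2 signal of each of the 48 genes (rows, from bright to dim within large subunit, small subunit, stalk and paralogs) in each array (columns), as the difference from the gene's mean over the 11 arrays. Bright genes are below their mean in nearly all low protein arrays and most strongly in low protein STZ 1, whereas dim genes such as Rpl39l, Rpl3l and Rps6 show little contrast between the diets.

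The first comparison set low protein against control offspring. Averaged over both injections, the median difference of the 48 genes was -0.63, a 1.55-fold lower signal, and 47 of 48 genes were lower. It was -0.58 among sham offspring (46 of 48 lower) and -0.67 among STZ offspring (47 of 48 lower), against medians over all 15897 genes of -0.03, -0.02 and -0.04 in the same order. Without low protein STZ 1, the median was -0.42 among STZ offspring (45 of 48 lower) and -0.50 averaged over injections (46 of 48 lower). With limma, no ribosomal protein gene and no gene at all passed an adjusted p of 0.05 in any of these comparisons (0% called). The smallest adjusted p of a ribosomal protein gene was 0.0574 averaged over injections, 0.209 in sham and 0.348 in STZ offspring. At an unadjusted p under 0.05, 39 genes were lower and 0 higher averaged over injections, where 11.7% of all genes were lower and 3.65% higher. In sham offspring 32 were lower and 0 higher (7.22% and 3.2% of all genes), and in STZ offspring 37 were lower and 0 higher (7.79% and 1.7% of all genes). All 6 low protein values lay below all 5 control values for 32 genes and above them for 0, against 2.47% and 0.679% of all genes. Within sham offspring the groups did not overlap for 35 genes, all lower (10.2% of all genes lower, 5.57% higher). Within STZ offspring they did not overlap for 41 lower genes and 1 higher gene, Rpl39l (16.8% of all genes lower, 7.48% higher). The dim Rpl39l was barely apart, with 7.25059 in low protein STZ 2 and 3 against 7.25042 in control STZ 3. In a whole organ, fewer cells of a type and less RNA per cell cannot be told apart.

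Much of this difference was shared by other bright genes. The 306 genes outside the family with a mean signal between the family's 25th and 75th percentile (11.81 to 13.86) are called genes of equal signal. The median signal of these 306 genes was 12.42, against 13.31 for the 48 genes, so they were dimmer as a set. Their median difference was -0.38 averaged over injections, -0.33 in sham and -0.40 in STZ offspring, and 265 of the 306 were lower. Of the 306, 20.9% were lower without overlap between the diets averaged over injections, 46.7% in sham and 41.5% in STZ offspring. Higher without overlap were 3.92%, 6.86% and 5.23% in the same order. Of the 48 ribosomal protein genes, 66.7%, 72.9% and 85.4% were lower without overlap. Over the wider range from the 10th to the 90th percentile, which holds 8772 mostly dimmer genes, the median was -0.06 averaged over injections, -0.05 in sham and -0.07 in STZ offspring. Set against the 306 genes array by array, the ribosomal protein median stood 0.52 to 0.94 above them in low protein arrays and 0.94 to 1.10 above them in control arrays. The highest low protein array, STZ 2 at 0.9402, lay just below the lowest control array, STZ 3 at 0.9427. The part that array-wide differences in the bright range have in the ribosomal protein differences was not tested. Scaling each array by these 306 genes left a median of -0.28 averaged over injections with 37 of 48 genes lower, but it also moved the median of all genes to 0.31. On that scale 19 ribosomal protein genes passed the adjusted threshold, 17 lower and 2 higher (the dim Rpl39l and Rpl3l), where 47% of all genes passed (limma). Cyclic loess scaling gave -0.16 with 43 of 48 lower and quantile scaling -0.17 with 44 of 48 lower, so that the size of the difference depended on the scaling while its direction did not.

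**Figure D3:**
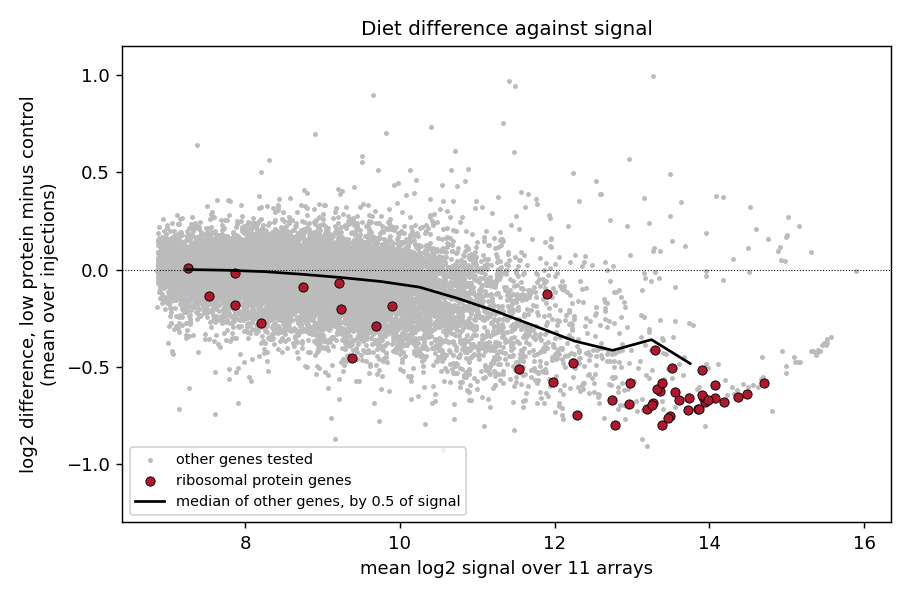
Log2 difference between low protein and control offspring, averaged over injections, against the mean log2 signal over 11 arrays, for the 48 ribosomal protein genes (red), the other tested genes (grey) and the median of the other genes in steps of 0.5 in signal that hold at least 20 genes (line). In both sets the differences are larger among bright than among dim genes, and most bright ribosomal protein genes lie below the line.

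The signal also divided the family itself. Averaged over injections, the 37 bright genes had a median difference of -0.66, all 37 were lower, and the diets did not overlap for 31. The 11 dim tested genes had a median of -0.18, 10 were lower, and the diets did not overlap only for Rpl39. Of the 370 genes outside the family with a mean of at least 11.81, 84.3% were lower, with a median of -0.39. The diets did not overlap, lower, for 27.0% of these 370 genes and for 2.47% of all genes. The subunits had similar medians. The median over all tested large subunit genes was -0.64, and 20 of 20 were lower. Over the tested small subunit genes it was -0.63, and 20 of 20 were lower.

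Rpl13a, a large subunit protein that in human monocytes also takes part in silencing inflammatory messengers, had the largest difference. Its signal was 12.49, 13.23 and 13.17 in low protein STZ, 13.23, 12.97 and 12.94 in low protein sham, 13.66 and 13.71 in control STZ, and 13.75, 14.07 and 13.99 in control sham arrays. All low protein values lay below all control values. The difference averaged over injections was -0.80 ± 0.13 (SE, 6 low protein and 5 control arrays), a 1.74-fold lower signal with an adjusted p of 0.0574 (limma). The 3 other probe sets of Rpl13a differed by -0.68, -0.68 and -0.62.

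Rpl22, a large subunit protein that binds structured RNAs, and its paralog Rpl22l1, which in mice can take its place, both had lower signals in low protein arrays. Rpl22 had 11.89, 12.56 and 12.51 in low protein STZ, 12.48, 12.63 and 12.33 in low protein sham, 13.06 and 13.10 in control STZ, and 13.22, 13.20 and 13.54 in control sham arrays. The diets did not overlap, and the difference was -0.80 ± 0.13 (adjusted p 0.0574, limma). Its 2 other probe sets gave smaller differences, of -0.45 without overlap at a mean of 11.49 and of -0.11 with overlap at a mean of 8.94. Rpl22l1 had 11.32, 12.05 and 12.19 in low protein STZ, 12.22, 11.98 and 11.83 in low protein sham, 12.69 and 12.43 in control STZ, and 12.72, 12.79 and 12.89 in control sham arrays. The diets again did not overlap, with a difference of -0.75 ± 0.15 (adjusted p 0.0585, limma). Rpl22 has no pyrimidine run of 8 bases in the sequence above and Rpl22l1 has one of 10.

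The other large subunit genes with a small p over the 4 groups behaved alike. Rpl41, which encodes a very short basic peptide, had 13.61, 14.26 and 14.02 in low protein STZ, 14.30, 14.18 and 14.02 in low protein sham, 14.75 and 14.65 in control STZ, and 14.72, 14.83 and 14.67 in control sham arrays. All low protein values lay below all control values, with a difference of -0.66 ± 0.11 (adjusted p 0.0574, limma). Rpl7a, another core protein of the large subunit, differed by -0.68 ± 0.12 and Rpl35, which lies at the exit of the peptide tunnel, by -0.76 ± 0.14. Rpl37a, a zinc-binding protein of the large subunit, differed by -0.67 ± 0.16. Rpl27, by contrast, had 12.55, 13.20 and 13.09 in low protein STZ, 13.30, 13.30 and 13.23 in low protein sham, 13.70 and 13.44 in control STZ, and 13.49, 13.26 and 13.71 in control sham arrays. Its sham groups overlapped, and its difference of -0.42 ± 0.12 averaged over injections (adjusted p 0.147, limma) was smaller than that of any other bright large subunit gene except Rpl37 (-0.12 ± 0.09). This contrast belongs to the brightest probe set of Rpl27, since its 2 others differed by -0.60 and -0.68, both without overlap between the diets.

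Among small subunit genes, Rpsa, which is both a ribosomal protein and the precursor of a laminin receptor, was representative. It had 12.19, 12.87 and 12.66 in low protein STZ, 12.88, 12.64 and 12.58 in low protein sham, 13.09 and 13.44 in control STZ, and 13.51, 13.28 and 13.39 in control sham arrays. The diets did not overlap, and the difference was -0.69 ± 0.12 (adjusted p 0.0574, limma). Rps29, the brightest gene of the family, had 13.97, 14.61 and 14.51 in low protein STZ, 14.65, 14.57 and 14.33 in low protein sham, 14.93 and 15.05 in control STZ, and 15.17, 15.06 and 14.95 in control sham arrays, and differed by -0.59 ± 0.11 (adjusted p 0.0585, limma). Rps28, second in brightness, differed by -0.64 ± 0.12 and Rps14, a protein of the platform of the small subunit, by -0.68 ± 0.13. For these 3 genes too, every low protein value lay below every control value.

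Rps9 and Rps19 departed from this in sham offspring. Rps9, the counterpart of a bacterial protein that starts small subunit assembly, had 11.30, 11.98 and 11.65 in low protein STZ, 12.01, 11.81 and 11.68 in low protein sham, 12.71 and 12.35 in control STZ, and 12.37, 12.12 and 11.82 in control sham arrays. The sham groups overlapped (-0.27 ± 0.19) and the STZ groups did not (-0.89 ± 0.21). Rps19, the gene most often mutated in the inherited human anaemia of Diamond and Blackfan, differed by -0.27 ± 0.16 in sham and by -0.75 ± 0.18 in STZ offspring. Rps6, the small subunit protein phosphorylated by S6 kinases downstream of mTORC1, was dim and differed by -0.09 ± 0.07 averaged over injections, with 8.53, 8.78 and 8.72 in low protein STZ, 8.84, 8.68 and 8.73 in low protein sham, 8.83 and 9.03 in control STZ, and 8.65, 8.71 and 8.70 in control sham arrays. The diets overlapped.

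The stalk recruits elongation factors to the large subunit. Rplp0, which anchors it, had 12.66, 13.41 and 13.54 in low protein STZ, 13.39, 13.14 and 13.46 in low protein sham, 14.08 and 13.68 in control STZ, and 13.96, 13.86 and 13.93 in control sham arrays. The diets did not overlap, with a difference of -0.63 ± 0.15 (adjusted p 0.084, limma). Rplp2, one of the flexible stalk proteins, had 11.86, 12.79 and 12.37 in low protein STZ, 12.74, 12.59 and 12.35 in low protein sham, 13.33 and 13.12 in control STZ, and 13.07, 13.02 and 12.97 in control sham arrays. Its diets did not overlap either, and the difference was -0.67 ± 0.14 (adjusted p 0.0623, limma).

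The 6 paralogs were split by signal. The bright ones, Rpl22l1 and the p53 target Rps27l (-0.69 ± 0.15), differed as the core genes did. The 4 dim ones did not separate the diets: Rpl7l1, which in human cells acts in large subunit assembly, differed by -0.20 ± 0.12, Rps4l by -0.14 ± 0.10, Rpl3l by -0.02 ± 0.07 and Rpl39l by 0.01 ± 0.05. Scaled by the genes of equal signal, these 4 moved to 0.14, 0.21, 0.33 and 0.35 in the same order. Those 306 genes had means of 11.81 to 13.86, against 7.26 to 9.24 for these 4. The scaling also moved the median of all genes to 0.31. Rpl39 itself, although dim, had 9.58, 9.69 and 9.49 in low protein STZ, 9.62, 9.44 and 9.53 in low protein sham, 9.86 and 9.71 in control STZ, and 9.82, 9.99 and 9.92 in control sham arrays, without overlap between the diets and with a difference of -0.29 ± 0.06 (adjusted p 0.0636, limma). Rpl12 and Rpl27a, dim large subunit genes, differed by -0.28 ± 0.12 and -0.46 ± 0.24, with overlap. The untested Rps16 had group means of 5.48 ± 0.08 in low protein STZ, 5.55 ± 0.05 in low protein sham, 5.42 ± 0.14 in control STZ and 5.54 ± 0.17 in control sham arrays (SD, n = 3, 3, 2 and 3).

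**Figure D4:**
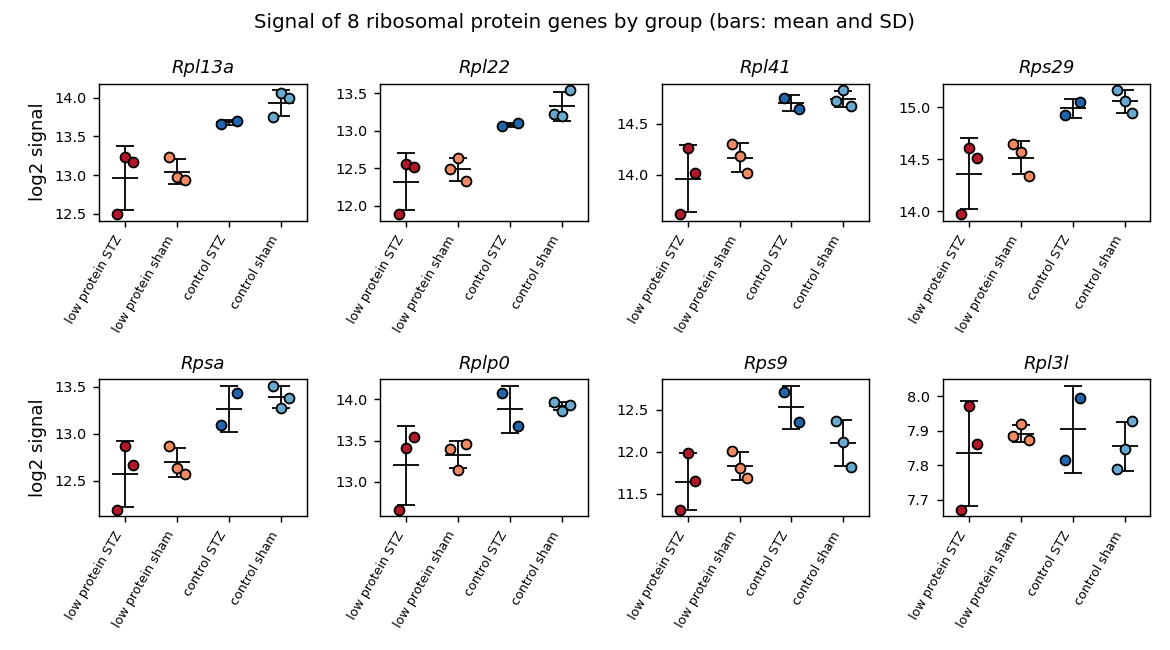
Log2 signal of 8 ribosomal protein genes by group, with each array as a point and the mean and SD of each group as bars. The diets are apart for Rpl13a, Rpl22, Rpl41, Rps29, Rpsa and Rplp0, the control STZ arrays are the highest group for Rps9, and the groups overlap for Rpl3l.

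Pyrimidine runs did not divide the bright genes. The 16 bright genes with a run of at least 8 bases at the start had a median difference of -0.68 averaged over injections, and the 16 without one had -0.64. The printed pair Rpl35 (18 bases, -0.76) and Rpl41 (3 bases, -0.66) shows the same, and Rpl14 had a run of 14 bases with a difference of -0.18 on a dim probe set.

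Probe sets that were not chosen to represent a gene gave the same picture where they were bright. Of the other probe sets with a single symbol of the family, 33 had a mean of at least 11. They belonged to 18 genes, their median difference was -0.68 averaged over injections, 33 of 33 were lower, and the diets did not overlap for 30. A further 84 bright probe sets carried a symbol of the family beside other symbols, with a median of -0.66, 84 of 84 lower and 73 without overlap. These probe sets can bind the same transcripts, so they are no independent measurements. Counted by gene, 2.47% of all tested genes were lower without overlap. The share was 27.0% of the 370 genes outside the family with a mean of at least 11.81. On plain _at probe sets alone, 23 genes were tested, 6 of them bright, and the median difference averaged over injections was -0.18 with 19 of 23 lower. The 5 bright genes whose brightest probe set was a plain _at one had a median of -0.63, with 5 of 5 lower.

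The second comparison asked what STZ left in the family at 30 days. In control offspring, the median difference between STZ and sham was -0.08 (32 of 48 lower), against 0.002 over all genes. No gene passed the adjusted threshold (0% called), and the smallest adjusted p of the family was 0.999 (limma). At an unadjusted p under 0.05, 0 ribosomal protein genes were lower (2.13% of all genes) and 1 was higher, Rps6 (1.92% of all genes). The groups did not overlap for 9 lower and 3 higher genes, against 7.72% and 8.64% of all genes. Rps6 had 8.83 and 9.03 in control STZ, against 8.65, 8.71 and 8.70 in control sham arrays, a difference of 0.24 ± 0.10 (unadjusted p 0.03, limma). Rps9 was higher by 0.43 ± 0.21 and Rps19 by 0.26 ± 0.18, both with 1 STZ value inside the sham range. The most negative genes were Rps14 at -0.26 ± 0.19, Rpl13a at -0.25 ± 0.20 and Rpl22l1 at -0.24 ± 0.22.

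In low protein offspring, the median difference between STZ and sham was -0.13 (42 of 48 lower), against -0.02 over all genes. No gene passed (0% called; smallest adjusted p of the family 1.00, limma), and 0 ribosomal protein genes reached an unadjusted p under 0.05 in either direction (1.91% of all genes lower, 0.679% higher). The groups did not overlap only for Rpl27, which was lower by 0.33 on the log2 scale, against 5.14% of all genes lower and 2.6% higher. This median rested on low protein STZ 1: without that array it was 0.08 and 9 of 48 genes were lower. It was also above 0 with array weights (0.03) and with cyclic loess (0.03). The largest differences were -0.33 ± 0.16 for Rpl27, -0.24 ± 0.20 for Rps27l and -0.23 ± 0.21 for Rpl37a on the lower side, and 0.23 ± 0.32 for Rpl27a, 0.12 ± 0.14 for Rps4l and 0.06 ± 0.16 for Rpl12 on the higher side.

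The difference between the STZ effects of the diets (low protein minus control) had a median of -0.03, against -0.02 over all genes, and was 0.16 without low protein STZ 1. No gene passed (0% called; smallest adjusted p of the family 1.00, limma). At an unadjusted p under 0.05, 1 ribosomal protein gene was lower and 0 higher, against 2.21% and 1.35% of all genes. That gene was Rps6 (-0.31 ± 0.13, unadjusted p 0.0352). Rps9 had the most negative value (-0.62 ± 0.28, unadjusted p 0.0508), followed by Rps19 (-0.48 ± 0.24) and Rplp2 (-0.43 ± 0.29). On its dim _at probe set, Rps9 had a value of 0.21 instead. The comparisons within control offspring and within sham offspring share the control sham arrays, so their values are not independent.

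The test for any difference among the 4 groups called no gene (0% called), with a smallest adjusted p of 0.188 in the family (limma). At an unadjusted p under 0.05 it counted 37 of the 48 genes, against 9.89% of all genes. Beside the scaling by genes of equal signal, calls of ribosomal protein genes appeared when 1 of 4 arrays was left out and with array weights, and in no other setting that was run. Averaged over injections, 28 ribosomal protein genes passed the adjusted threshold without low protein STZ 1 (1.01% of all genes called), 19 without low protein STZ 2 (0.56%), 28 without low protein STZ 3 (2.89%), 6 without control sham 2 (0.642%) and 31 when arrays were weighted by their fit (5.01%). In sham offspring alone, 23 passed without low protein STZ 1, which enters that fit only through the shared spread (0.793%), and 2 passed in the test over the 4 groups without that array (0.0377%). The median difference of the family stayed below 0 in each of these settings.

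**Figure D5:**
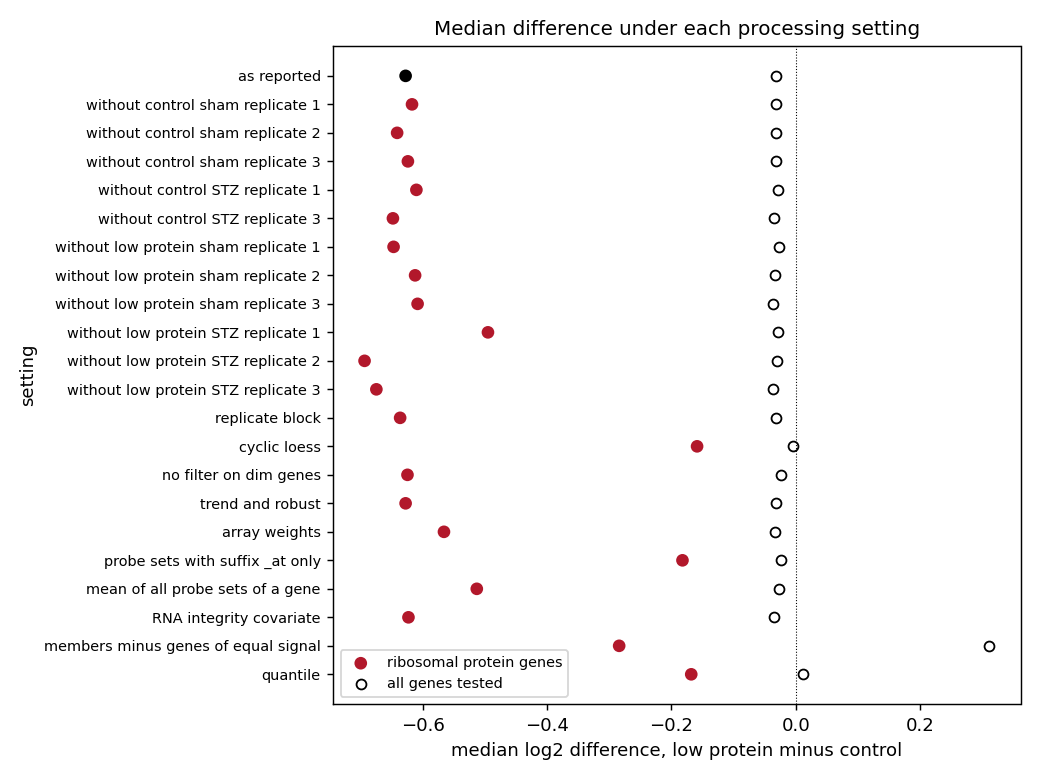
Median log2 difference between low protein and control offspring, averaged over injections, of the ribosomal protein genes (filled) and of all genes tested (open), as reported (black) and under each processing setting (red). The ribosomal protein median lies below 0 in every setting, and closer to 0 with cyclic loess, with quantile scaling, with plain _at probe sets and after subtraction of genes of equal signal, which raises the median of all genes above 0.

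Genes that work with the ribosome were described from lists of the pathway, each with 0 members past the adjusted threshold in the comparison averaged over injections. Of translation factors and other genes known for TOP motifs, 17 of 21 listed were tested, 17 were lower, and the median was -0.46. An unadjusted p under 0.05 was reached by 14 of them, all lower, where 11.7% of all genes were lower at that p and 3.65% higher. Eef1b2, a subunit of the exchange factor for elongation factor 1, had 12.56, 13.28 and 13.28 in low protein STZ, 13.09, 13.15 and 13.08 in low protein sham, 13.84 and 13.56 in control STZ, and 13.73, 13.81 and 13.85 in control sham arrays. The diets did not overlap (-0.68 ± 0.13, adjusted p 0.0574, limma). Tpt1, the translationally controlled tumour protein, differed by -0.53 ± 0.10. Fau, which encodes small subunit protein S30 fused to a ubiquitin-like protein, differed by -0.56 ± 0.18 with overlap.

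Among initiation factors, 24 of 29 listed were tested, 23 were lower, 8 of them at an unadjusted p under 0.05 (11.7% of all genes), and the median was -0.20. Eif3i, a subunit of the scaffold factor eIF3, differed by -0.63 ± 0.13 and Eif4a2, an RNA helicase of the cap complex, by -0.69 ± 0.17. Ribosome assembly factors and RNA polymerase I subunits had a median of -0.05 over 37 tested of 38 listed, of which 24 were lower. Of these, 5 had an unadjusted p under 0.05, a share near the 11.7% of all genes. Polr1c and Polr1d, subunits shared by RNA polymerases I and III, were the 2 with the smallest p over the groups, at -0.40 ± 0.06 and -0.57 ± 0.10 (both adjusted p 0.0574, limma). Polr1c had 8.93, 9.15 and 8.99 in low protein STZ, 9.01, 9.23 and 9.08 in low protein sham, 9.45 and 9.42 in control STZ, and 9.47, 9.46 and 9.59 in control sham arrays, without overlap between the diets.

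For mTORC1 and S6 kinase genes the median was -0.08 over 13 tested of 15 listed, with 10 lower, 2 of them at an unadjusted p under 0.05, a share near the 11.7% of all genes. The injections differed in sign, with a median of 0.05 and 9 of 13 higher in sham offspring and a median of -0.18 and 10 of 13 lower in STZ offspring. Eif4ebp1, the translation repressor that mTORC1 inactivates, differed by -0.49 ± 0.13. Akt1s1, an inhibitory subunit of mTORC1, differed by -0.49 ± 0.14 in STZ and by 0.14 ± 0.13 in sham offspring. Ribosomal proteins of the mitochondrion, a separate family, had a median of -0.19 over 76 genes, with 72 lower and 39 of them at an unadjusted p under 0.05 (11.7% of all genes). The diets did not overlap for 5 of the 76, all lower, against 2.47% of all genes.

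Lists of markers of the cell types of the pancreas were set beside these values. Acinar markers, as listed above, had a median of -0.39 averaged over injections, and 15 of 15 were lower without overlap (2.47% of all genes). Endothelial markers, with 7 of 7 listed tested, had a median of -0.15. They were lower for 7 of 7 genes, 4 of them at an unadjusted p under 0.05 (11.7% of all genes lower). Their array mean was 8.41 to 8.50 in low protein STZ, 8.30 to 8.48 in low protein sham, 8.55 to 8.62 in control STZ and 8.66 to 8.75 in control sham pancreas, so the diets did not overlap. Markers of endocrine cells other than β cells, with 6 of 7 listed tested, had a median of -0.41. They were lower for 6 of 6 genes, 3 of them at an unadjusted p under 0.05 (11.7% of all genes lower). Their median was -0.82 in sham offspring (6 of 6 lower) and -0.09 in STZ offspring (4 of 6 lower). Their array mean was 10.04 to 10.09 in low protein STZ, 9.50 to 10.62 in low protein sham, 10.19 in both arrays of control STZ and 10.55 to 11.17 in control sham pancreas, with overlap between the diets. Stromal markers had a median of -0.14. They were lower for 9 of 9 genes, 3 of them at an unadjusted p under 0.05 (11.7% of all genes lower). Their array mean was 9.68 to 9.89 in low protein STZ, 9.61 to 10.05 in low protein sham, 9.92 to 9.97 in control STZ and 9.83 to 10.61 in control sham pancreas, again with overlap. The remaining lists had medians of -0.14 for 4 duct, -0.05 for 5 B lymphocyte, 0.09 for 6 T lymphocyte, -0.04 for 6 macrophage, -0.19 for 2 red cell and -0.33 for 2 adipocyte markers. The part of these cell types in the ribosomal protein differences was not tested. β-cell markers, of which 8 of 10 listed were measured and 6 tested, had a median of -0.35 averaged over injections. Of the tested genes, 6 of 6 were lower, 3 of them at an unadjusted p under 0.05 (11.7% of all genes lower). By injection, the median of β-cell markers was -0.66 in sham offspring (5 of 6 lower) and -0.03 in STZ offspring (3 of 6 lower). The array mean of the 8 measured genes was 8.57 to 8.75 in low protein STZ and 8.59 to 9.14 in low protein sham pancreas. It was 8.62 to 8.66 in control STZ and 9.44 to 9.88 in control sham pancreas, with overlap between the diets. The part of β cells in the ribosomal protein differences was not tested either.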

How the data were processed

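The values used were log2 signals, as the authors deposited them, of 45101 probe sets on 11 arrays, for which RMA and Partek 6.5 are named, without a role or an order, per the submitters' processing notes. The genome build is not given in the sources used here. Probe sets were named from the platform annotation: 34958 carried 1 gene symbol, 932 several and 9211 none, and only the first kind was tested. The brightest probe set over all arrays stood for each gene. Genes with a mean at or under 6.866, the 0.25 quantile of probe set means, were not tested, which left 15897.

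A model of 4 group means was fitted to all of them with limma 3.58.1 (R 4.3.3, lmFit and eBayes, two-sided), with Benjamini-Hochberg adjustment and a threshold of 0.05. Tables were made with Python 3.11.15. A run on simulated data, in which 200 of 15897 genes were changed, called 95% of the genes changed 2-fold and 66% of those changed 1.5-fold for diet in sham offspring, and 92% and 62% for diet in STZ offspring. The changed genes were drawn at random from all tested genes, and the simulated spread was independent between genes. The ribosomal protein genes are mostly bright and moved together between arrays, so these shares do not give their recovery.

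The ribosomal protein genes and all gene lists were chosen with earlier results of these data known, and the mean over injections, the bright limit of 11, the genes of equal signal and quantile scaling were added after the values had been seen. Lists are described by counts and medians, with no test. Genes named are the 3 with the largest differences each way in each comparison, the 4 with the smallest p over the groups, the brightest and dimmest 3, the stalk, Rpsa, the paralogs and 2 genes of each pathway list. Rpl14, Rpl37, Rps25 and Ins2 were named after their values were seen. Sequences are from RefSeq. Same-numbered replicates were treated as unpaired: their residual correlations ran from -0.32 to 0.26, and the labels name no shared litter or day. Alternatives were each array left out in turn, a replicate block, only the groups compared, cyclic loess, no filter on dim genes, trend and robust moderation, array weights, plain _at probe sets, the mean of a gene's probe sets and a covariate for RNA integrity (Gapdh and Actb signal, 3′ minus 5′). The number of arrays limits the precision, and p-values measure the spread between these arrays.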

Additional observations from a re-analysis of the deposited data

Results flagged for a closer look

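The control probe set for the 5′ end of 18S ribosomal RNA is outside the main measurement and read 11.11 in control STZ 1, far above the other arrays. It read 8.94 in low protein sham 3 and between 5.98 and 7.22 in the other 9 arrays. The median signal of the ribosomal protein genes in control STZ 1 was 13.70, inside the range of the other control arrays (13.52 to 13.75). Without control STZ 1, the median difference between low protein and control offspring averaged over injections was -0.61, against -0.63 with it. No group held 4 or more arrays, so no single array was tested as an outlier within its group.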

How the results depend on the processing

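The direction of the median diet difference of the ribosomal protein genes was kept under every alternative run, but its size was not. In sham offspring it was -0.16 with cyclic loess, -0.18 on plain _at probe sets, -0.28 after subtraction of genes of equal signal and -0.13 with quantile scaling, against -0.58 as reported. In STZ offspring it was -0.13, -0.20, -0.29 and -0.21 under the same settings, and averaged over injections -0.16, -0.18, -0.28 and -0.17. Subtraction of genes of equal signal brought the median of all genes to 0.28 in sham and 0.34 in STZ offspring and to 0.31 averaged over injections, so it holds only relative to bright genes. Of the 23 genes on plain _at probe sets, 6 were bright. The 5 bright genes whose brightest probe set was a plain _at one had a median of -0.63 averaged over injections, with 5 of 5 lower. The cause of the shifts between settings was not tested. With each array left out in turn, the median ran from -0.63 to -0.52 in sham, from -0.78 to -0.42 in STZ offspring (-0.42 without low protein STZ 1) and from -0.69 to -0.50 averaged over injections, and the number of genes called ran from 0 to 23, 0 to 0 and 0 to 28. In the test over 4 groups it ran from 0 to 2. Averaged over injections, array weights called 31 genes and subtraction of genes of equal signal 19. With a replicate block the medians were -0.58 in sham, -0.68 in STZ offspring and -0.64 averaged over injections, with 0 calls in each comparison, so the block changed no call. The STZ medians lay near 0 in either direction: with arrays left out they ran from -0.10 to -0.04 in control and from -0.26 to 0.08 in low protein offspring, and the difference between them from -0.16 to 0.16.

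Some named genes changed sign, mostly from small differences, but also Rps9 and Rpl35, which were -0.89 and -0.81 between diets in STZ offspring on their brightest probe sets. Between STZ and sham, Rps9 was -0.165 in control offspring on its _at probe set. In low protein offspring, with arrays left out in turn, Rps27l ran from -0.393 to 0.0208, Rpl37a from -0.467 to 0.0144, Rpl27a from -0.00762 to 0.523 and Rps4l from -0.0273 to 0.29, and with array weights Rpl37a was 0.106 and Rpl27a -0.121. Between diets in STZ offspring, Rps9 was 0.0084 and Rpl35 0.0449 on _at probe sets. Those probe sets were dim, with means of 7.37 for Rps9 and 8.16 for Rpl35, and differed by -0.10 and -0.07 averaged over injections. The remaining Rps9 probe set, at a mean of 11.07, differed by -0.47 averaged over injections. The remaining bright Rpl35 probe sets differed by -0.68, -0.80, -0.78 and -0.79. The difference between the STZ effects was 0.215 for Rps9 on its _at probe set, and for Rpl27a it ran from -0.0768 to 0.737 with arrays left out. Averaged over injections, Rpl39l ran from -0.00384 to 0.0244 and Rpl3l from -0.0612 to 0.0284 with arrays left out, and Rpl3l was 0.0111 with array weights and 0.00106 with the RNA integrity covariate. After subtraction of genes of equal signal, all of them brighter than these dim paralogs, Rpl3l was 0.327, Rpl7l1 0.143 and Rps4l 0.206. Over all settings, 8 repeats of a count of called genes gave more calls and 143 the same, and 13 repeats of a median moved by more than the spread between arrays while 117 did not. The few arrays limit all p-values.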
